A study of Homo sapiens with 4 samples.

Results

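Genes that the tumour suppressor p53 is known to activate directly were followed in U87 cells, an established human glioma line, with and without a hairpin against PTPRN. The set holds 34 genes, chosen by name as widely cited direct targets, with CDKN1A and the BCL2 family left aside, out of 27940 gene symbols in the tables. The choice was made with earlier results of these data known. All 34 were found, and all 34 reached the mean of 1 scaled FPKM over the 4 libraries needed for testing (FPKM are fragment numbers normalised to transcript length and library size). ACER2, with a mean of 0.542 in shNC and 3.53 in shPTPRN3, reached it only through the shPTPRN3 libraries. It is counted with the other members below.

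There were 4 RNA-seq libraries in 2 groups of 2. The shNC cells were infected with lentivirus made from the empty FUGW-H1 vector, although the design text calls its control H1-RFP (WT). The shPTPRN3 cells were infected with lentivirus carrying a single hairpin against PTPRN, so that no other hairpin stands beside it. Neither the labels nor the design text say whether the replicates grew as separate cultures, so each p-value reflects only how far these 4 libraries scatter, which could be technical. The study's title concerns growth of the line, and the comparison asks how these targets differ when PTPRN is reduced.

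p53 is a transcription factor that damaged or stressed cells stabilise. It binds a response element made of a pair of similar ten-base units in or near its targets and raises their transcription. The targets arrest the cell cycle, repair DNA, supply nucleotides, adjust metabolism, or lead to cell death. Some of them, MDM2 first among them, switch p53 off again in a feedback loop.

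PTPRN had 27.6 and 19.8 scaled FPKM in the shNC libraries and 4.96 and 3.62 in the shPTPRN3 libraries, a mean of 0.181 times the control mean (log2 fold change -2.22 ± 0.34, SE; limma, adjusted p = 0.0592). Depth, estimated from the width of the deposited confidence intervals, ran from about 12800000 to 30000000 fragments per library. The mesenchymal markers VIM (1190 to 2100 scaled FPKM) and CD44 (84.6 to 97.7) were high in every library. Of the further glioma markers examined, FN1 varied from 43.2 to 341 and NES was low, at 0.972 to 4.01. The glial marker GFAP was listed at 0 in every library, and SOX2 did not exceed 0.245. MTAP, a locus known to be lost in this line, did not exceed 0.0214. The reference gene GAPDH ran from 2770 to 4570 without separating the groups, and ACTB had 2490 and 1860 in shNC against 1490 and 560 in shPTPRN3. Among markers of other cell types, EPCAM did not exceed 0.798 and the leukocyte marker PTPRC did not exceed 0.212, while the neuronal marker SYT1 ran from 1.04 to 2.28.

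As a set, the p53 targets stood higher in the shPTPRN3 libraries. The median log2 fold change was 0.63 over the 34 members, against -0.01 over all 11390 genes tested, and 28 of 34 members (82.4%) had a positive value, against 49.5% of all genes. No member passed the threshold of an adjusted p under 0.05 in limma's test, which called 0.421% of all genes, and 0.079% as higher. At an unadjusted p under 0.05, 12 members were higher and 1 was lower, or 35.3% and 2.94% of the set, beside 5.67% and 7.77% of all genes. A log2 fold change above 1 was found for 10 members, or 29.4%, beside 4.27% of all genes. Because the members were chosen with earlier results of these data known, the shares here and below describe the set and do not test it.

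For 21 members both shPTPRN3 values lay above both shNC values, and for 2 members, DRAM1 and PERP, both lay below. These shares are 61.8% and 5.88%, beside 21.5% and 23.1% of all genes tested. For 10 of the 21 the lower shPTPRN3 value was at least 1.5 times the higher shNC value, and for 5 it was less than 1.2 times that value. With 2 values against 2, an exact two-sided permutation test of a single gene cannot give a p below 0.333. The members' median log2 fold change was 0.39 without shPTPRN3 replicate 2 and 0.84 without shPTPRN3 replicate 1, beside 0 and -0.02 over all genes. It was 0.54 without shNC replicate 1 and 0.56 without shNC replicate 2, beside -0.01 over all genes in each. Without shNC replicate 2 the members wholly lower in shPTPRN3 numbered 7, and without shPTPRN3 replicate 1 they numbered 4. With 1 value against 2, groups separate more readily for every gene, and 40.4% and 37.5% of all genes were wholly lower in these fits.

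**Figure D1:**
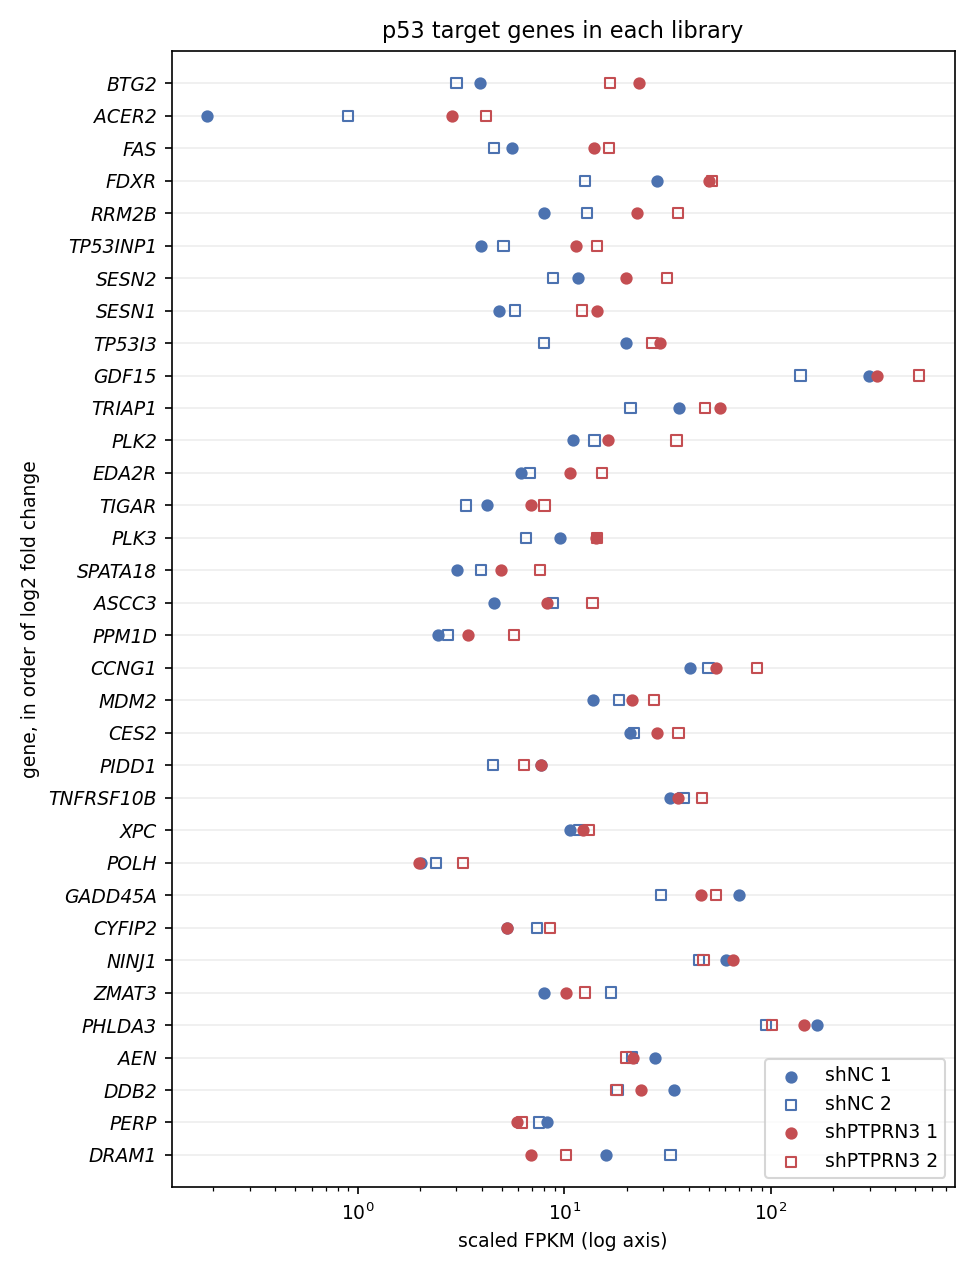
Scaled FPKM (log axis) of the 34 p53 target genes in each of the 4 libraries, in order of log2 fold change from the highest at the top; blue marks are shNC, red marks are shPTPRN3, filled circles are replicate 1 and open squares replicate 2. In 21 genes both red marks lie to the right of both blue marks, and in DRAM1 and PERP at the bottom both lie to the left.

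Levels in the control cells spanned a wide range. GDF15 (218 scaled FPKM on average) and PHLDA3 (131) were the highest of the set in shNC, ACER2 (0.542) was the lowest, and the median member stood at 10.9. The shNC libraries differed from each other by more than 1.5 times for 13 members and the shPTPRN3 libraries for 10, so the spread within a group was wide for many of them. In shPTPRN3 replicate 2, 25 of the 34 members were higher than in shPTPRN3 replicate 1. The same counts were not made over all genes, so they do not set the members apart. In bulk RNA, a higher level in every cell and a larger share of cells with the transcript cannot be told apart.

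The 3 members placed in the role of feedback on p53 were modestly and wholly higher in shPTPRN3, beside 21.5% of all genes tested. None of the 3 had an unadjusted p under 0.05 in limma's test. Here and below, roles were assigned after the values were seen, so counts by role are descriptions only. MDM2, the ubiquitin ligase that marks p53 for degradation (chromosome 12, 68808172 to 68850684, plus strand, hg38), had control values of 13.7 and 18.4 scaled FPKM and values of 21.2 and 27.2 in shPTPRN3. The groups did not overlap, but the lower shPTPRN3 value was only 1.15 times the higher control value. The means were 16.0 ± 3.30 and 24.2 ± 4.25 (SD, n = 2), a ratio of 1.51, and the log2 fold change of 0.57 ± 0.34 (SE) did not pass limma's test (adjusted p = 0.498). Without shNC replicate 1 it was 0.37. PPM1D, the phosphatase that dephosphorylates p53 and its activating kinases, stood at 2.46 and 2.73 against 3.41 and 5.73. CCNG1, cyclin G1, which acts on p53 through MDM2, stood at 40.7 and 49.8 against 54.3 and 85.5. PPM1D and CCNG1 did not pass limma's test (adjusted p = 0.474 and 0.545). The log2 fold changes of these 3 genes, MDM2, PPM1D and CCNG1, were 0.57 to 0.60, close to each other and to the median of the whole set.

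Among the 7 genes of growth arrest and stress signalling, 5 were wholly higher in shPTPRN3 and 2 overlapped, with a median log2 fold change of 0.89. Of all genes tested, 21.5% were wholly higher. BTG2, an antiproliferative protein that recruits the machinery of mRNA deadenylation (chromosome 1, 203305519 to 203309601, plus strand), showed the largest difference of the set. Its control values were 3.91 and 3.01 scaled FPKM, those in shPTPRN3 were 22.9 and 16.6, and the lower of the latter was 4.23 times the higher of the former. The means were 3.46 ± 0.637 and 19.7 ± 4.49 (SD, n = 2), a 5.69-fold difference, with 5.85-fold between the replicates numbered 1 and 5.49-fold between the replicates numbered 2. Its log2 fold change of 2.21 ± 0.33 (SE) had an adjusted p of 0.0566 in limma's test, just short of the threshold. It passed without shPTPRN3 replicate 2 (adjusted p = 0.0256), with robust eBayes (0.0361), with the trend in transcript length removed (0.0441) and without genes listed at 0 in any library (0.0269); over all alternatives without a block the adjusted p ran from 0.0256 to 0.253.

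TP53INP1, a stress-induced protein that takes part in autophagy and in p53 activation, stood at 3.95 and 5.08 in shNC and at 11.4 and 14.4 in shPTPRN3 (log2 fold change 1.33 ± 0.32, SE; limma, adjusted p = 0.135). Its ratio was nearly the same for replicate 1 (2.87) and replicate 2 (2.83). GDF15, a secreted member of the TGF-beta superfamily, had 297 and 139 in shNC and 324 and 521 in shPTPRN3 (log2 fold change 1.01 ± 0.55; limma, adjusted p = 0.464). The groups of GDF15 barely separated, with a ratio of 1.09 for replicate 1 and of 3.74 for replicate 2, and the log2 fold change was 1.56 without shNC replicate 1 and 0.46 without shNC replicate 2. The stress-responsive polo-like kinases PLK2 (11.0 and 14.0 against 16.3 and 34.9) and PLK3 (9.58 and 6.54 against 14.2 and 14.4) were also wholly higher. GADD45A, a small stress sensor that binds cell cycle and repair proteins, had 69.7 and 29.3 in shNC and 45.6 and 54.1 in shPTPRN3. Its control values lay on either side of both knockdown values, and its log2 fold change was 0.13. ZMAT3, an RNA-binding zinc finger protein, likewise overlapped (7.94 and 16.8 against 10.2 and 12.6).

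The 8 genes of metabolism and redox balance were all wholly higher in shPTPRN3, with a median log2 fold change of 1.14 and single values from 0.55 to 1.58. For 6 of them limma's unadjusted p was under 0.05. ACER2, counted in the 8 and in the 6, holds the highest value. It reached the mean needed for testing only through the shPTPRN3 libraries. Among all genes tested, 21.5% were wholly higher, and 5.67% were higher at an unadjusted p under 0.05. As the roles were assigned after the values were seen, the shared direction of this group is a description and no test. The sestrins restrain mTORC1, the growth-promoting kinase complex. SESN1 stood at 4.81 and 5.76 in shNC and at 14.4 and 12.2 in shPTPRN3 (log2 fold change 1.19 ± 0.31, SE; limma, adjusted p = 0.167), and SESN2 at 11.6 and 8.80 against 19.9 and 31.3 (1.22 ± 0.36; adjusted p = 0.209). The mean of each sestrin was about 2.5 times higher in shPTPRN3, with ratios of 2.52 for SESN1 and 2.51 for SESN2.

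FDXR, the mitochondrial reductase that passes electrons from NADPH to ferredoxin, had 28.1 and 12.6 in shNC and 50.1 and 52.0 in shPTPRN3. Its log2 fold change was 1.39 ± 0.43 (SE; limma, adjusted p = 0.232), with most of the spread between the control libraries, and it was 0.83 without shNC replicate 2. TP53I3, a quinone oxidoreductase, showed the same order, with 19.8 and 7.96 in shNC and 29 and 26.7 in shPTPRN3 (1.08 ± 0.45; adjusted p = 0.367). The log2 fold change of TP53I3 was 1.69 without shNC replicate 1 and 0.47 without shNC replicate 2. ACER2, a Golgi ceramidase that yields sphingosine, was low in shNC, at 0.187 and 0.898, and stood at 2.86 and 4.19 in shPTPRN3. Only through the shPTPRN3 libraries did ACER2 reach the mean of 1 needed for testing. Its log2 fold change was 1.58 ± 0.36 (limma, adjusted p = 0.117), a size that the pseudocount of 1 holds down; with a pseudocount of 0.1 it was 2.74, and without genes listed at 0 in any library its adjusted p was 0.0436. The interval width of ACER2 in shNC replicate 1 corresponds to about 16 fragments, the fewest of any member.

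TIGAR, a phosphatase that lowers fructose-2,6-bisphosphate and so slows glycolysis, stood at 4.22 and 3.34 against 6.86 and 8.02. SPATA18, which takes part in the clearance of damaged mitochondria, stood at 3.01 and 3.96 against 4.91 and 7.64. CES2, a carboxylesterase, had tightly matched control values of 20.8 and 21.8 and stood at 28.1 and 35.7 in shPTPRN3. These 3 genes had log2 fold changes of 0.82, 0.68 and 0.55 and did not pass limma's test (adjusted p = 0.317, 0.435 and 0.493).

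**Figure D2:**
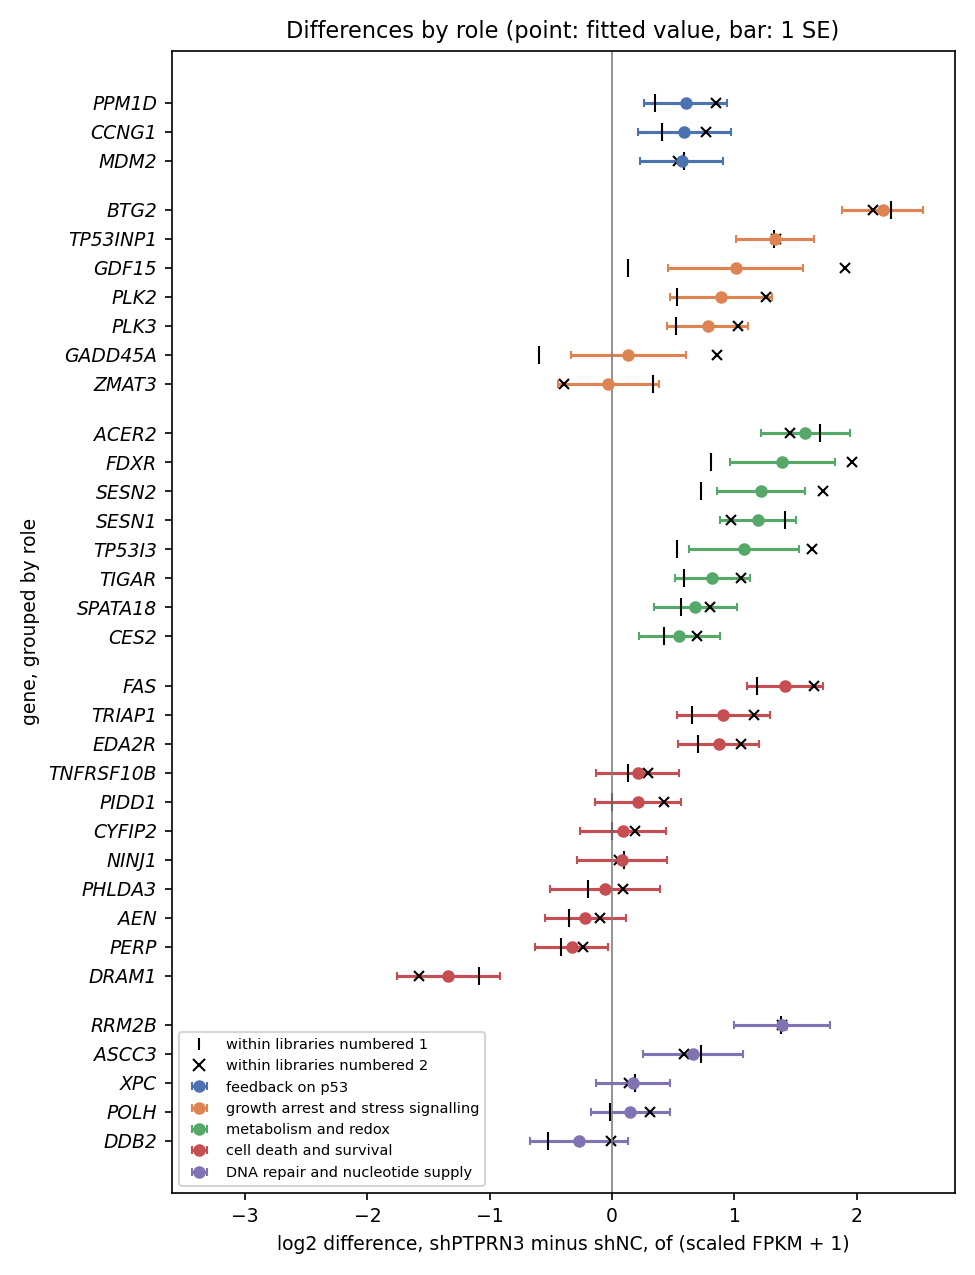
Fitted log2 difference between shPTPRN3 and shNC (points, with bars of 1 SE) for the 34 p53 target genes grouped by role; black bars and crosses give the difference between libraries of the same replicate number, 1 and 2. All 8 metabolic genes lie above 0, from 0.55 to 1.58, while the 11 genes of cell death and survival run from -1.34 to 1.41. The value of 1.58 is that of ACER2, which reached the mean needed for testing only through the shPTPRN3 libraries. Roles were assigned after the values were seen.

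Of the 11 genes of cell death and survival, 3 were wholly higher in shPTPRN3, 2 were wholly lower and 6 overlapped. Their median log2 fold change was 0.09. Among all genes tested, 21.5% were wholly higher and 23.1% wholly lower, so these counts do not set the role apart. FAS, the death receptor of FAS ligand (chromosome 10, 88990798 to 89017059, plus strand), stood at 5.59 and 4.57 in shNC and at 13.9 and 16.5 in shPTPRN3. Its means of 5.08 ± 0.724 and 15.2 ± 1.79 (SD, n = 2) differed 2.99-fold (log2 fold change 1.41 ± 0.31, SE; limma, adjusted p = 0.113). EDA2R, the receptor of an ectodysplasin isoform and a relative of FAS, stood at 6.19 and 6.81 against 10.7 and 15.2. TNFRSF10B, the TRAIL receptor DR5, had 32.4 and 37.7 in shNC and 35.6 and 46.2 in shPTPRN3, which overlap.

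TRIAP1, a small mitochondrial protein that protects against apoptosis, had 35.7 and 20.9 in shNC and 56.8 and 48.0 in shPTPRN3 (log2 fold change 0.91 ± 0.38, SE; limma, adjusted p = 0.374), and its log2 fold change was 0.53 without shNC replicate 2. DRAM1, a lysosomal membrane protein that promotes autophagy, went the other way, with 15.9 and 32.6 in shNC and 6.92 and 10.2 in shPTPRN3. It was the only member with an unadjusted p under 0.05 in the lower direction (log2 fold change -1.34 ± 0.42; limma, adjusted p = 0.241), and its shPTPRN3 mean was 0.354 times the control mean. Without shNC replicate 2 its log2 fold change was -0.85. PERP, a membrane protein of desmosomes and apoptosis, was the other member with wholly lower values, at 8.25 and 7.52 against 5.90 and 6.22.

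The remaining death genes overlapped between the groups. They were PIDD1, the scaffold of the complex that activates caspase-2 (7.71 and 4.50 against 7.69 and 6.36), and the apoptosis-enhancing nuclease AEN (27.5 and 21.2 against 21.4 and 19.8). PHLDA3, which competes with AKT for membrane lipids, had 167 and 94.9 against 145 and 101. NINJ1, which ruptures the plasma membrane of dying cells, had 60.9 and 45.0 against 65.2 and 47.1. CYFIP2, a subunit of the WAVE actin regulatory complex, had 5.30 and 7.37 against 5.30 and 8.54. For PHLDA3, NINJ1 and CYFIP2 the values followed the replicate number more than the group.

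Of the 5 genes of DNA repair and nucleotide supply, RRM2B and XPC were wholly higher in shPTPRN3 and 3 overlapped, with a median log2 fold change of 0.17. Beside the 21.5% of all genes that were wholly higher, a count this small does not set the role apart. RRM2B, the p53-inducible small subunit of ribonucleotide reductase, stood at 8.01 and 12.9 in shNC and at 22.5 and 35.5 in shPTPRN3. The means were 10.5 ± 3.46 and 29 ± 9.15 (SD, n = 2), and the ratio was 2.81 for replicate 1 and 2.75 for replicate 2 (log2 fold change 1.39 ± 0.39, SE; limma, adjusted p = 0.189). The damage sensors of nucleotide excision repair had log2 fold changes near 0 (0.17 and -0.27), with XPC at 10.7 and 11.8 against 12.3 and 13.2 and DDB2 at 34.1 and 18.1 against 23.4 and 17.9. POLH, the translesion polymerase eta, had 2.03 and 2.40 against 1.99 and 3.22. ASCC3, a helicase that acts in alkylation repair and ribosome rescue, had 4.58 and 8.79 against 8.26 and 13.7, which overlap although the shPTPRN3 value was higher within each replicate number.

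**Figure D3:**
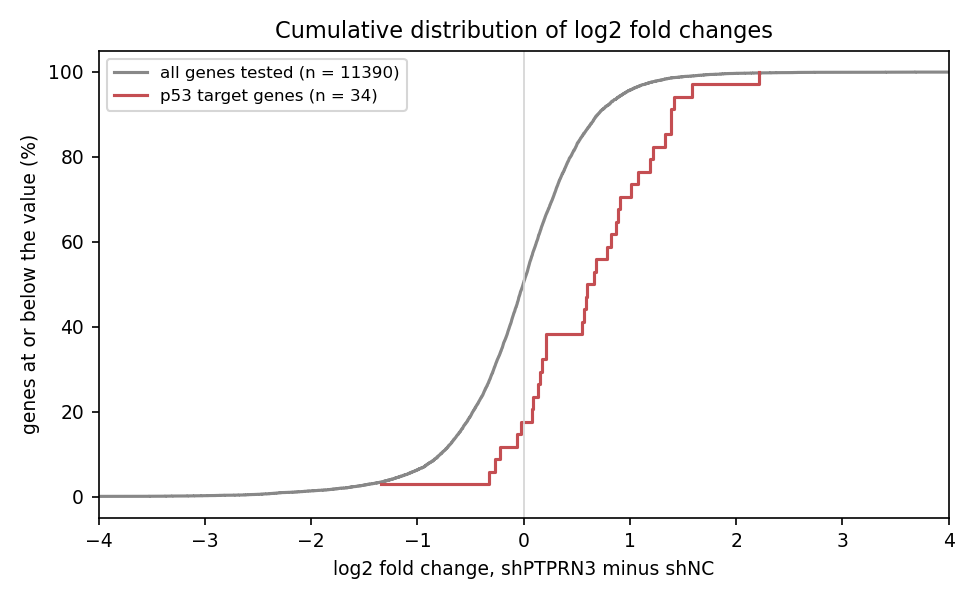
Cumulative share of genes (vertical axis, %) at or below a given log2 fold change between shPTPRN3 and shNC (horizontal axis) for the 34 p53 target genes (red) and all 11390 genes tested (grey). Genes beyond the ends of the horizontal axis are not drawn. The red curve crosses 50% near its median of 0.63 and the grey curve near -0.01, and DRAM1 gives the single red step at -1.34.

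The deposited confidence intervals, which reflect counting and read assignment in 1 library and no spread between cultures, gave a similar division. The intervals of both shPTPRN3 libraries lay wholly above those of both shNC libraries for 19 of 34 members (55.9%) and wholly below for 1, DRAM1 (2.94%). For 6 members the deposited FPKM lay outside its own interval in at least 1 library, and for GDF15, NINJ1 and TRIAP1 in all 4. Over the 10766 tested genes with a single row the shares were 12.1% and 11.9%. Fragment numbers implied by the interval widths had a median of 699 per member and library, and 2 members, ACER2 and BTG2, were under 100 in a library.

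The loci of 11 members overlap that of another gene row, and the strand setting of the counting is not given in the sources used here. On the opposite strand, FAS overlaps ACTA2 (17.2 and 18.3 scaled FPKM in shNC, 18 and 12 in shPTPRN3), TP53INP1 overlaps NDUFAF6 (10.4 and 7.69 against 11.9 and 16.3), and SESN1 overlaps CEP57L1 (1.39 and 1.89 in shNC, listed at 0 in both shPTPRN3 libraries). None of these 3 pairs shares exon bases in GENCODE 29. TNFRSF10B shares 67 exon bases, or 1.62% of its own, with RHOBTB2, which had 4.48 and 4.84 in shNC and 0 in each shPTPRN3 library. CCNG1 overlaps NUDCD2 (3.90 and 3.04 against 2.68 and a listed 0) and POLH overlaps GTPBP2 (16.8 and 15.4 against 16.6 and 13.7), without shared exon bases. The part of these neighbours in the members' values was not tested.

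Of 21 tested regulators of p53 (kinases, ubiquitin ligases, acetyltransferases and binding partners), none was called by limma, and at an unadjusted p under 0.05 none was higher and 1, PRMT5, was lower. PRMT5, an arginine methyltransferase, had 18.3 and 16.1 in shNC and 8.01 and 8.18 in shPTPRN3 (log2 fold change -1 ± 0.30, SE; limma, adjusted p = 0.221). MDM4, the inhibitory partner of MDM2, overlapped between the groups (2.03 and 2.84 against 2.11 and 2.50). The deacetylase SIRT1 had 3.03 and 4.47 against 1.62 and 2.50, and the acetyltransferase EP300 had 2.6 and 6.90 against 5.41 and 11.6. RPL11, a ribosomal protein that can bind and block MDM2, had 1210 and 601 against 746 and 456. KAT5 had the largest log2 fold change of the regulators, 1.7, which rests on a listed 0 in shNC replicate 1. It stood at 10.8 in shNC replicate 2 and at 10.1 and 10.2 in shPTPRN3. The median log2 fold change over the regulators was 0, and 3 (DAXX, RCHY1 and TRIM24) were wholly higher and 5 (PRMT5, SIRT1, CHEK1, BRD7 and COP1) wholly lower in shPTPRN3. These are 14.3% and 23.8% of the regulators, under or near the 21.5% and 23.1% of all genes, so the counts do not set the list apart. The names outside the rule for named genes were added after their values were seen.

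A list of further p53 targets outside the 34, also chosen with earlier results of these data known, held 55 genes, of which 42 were tested. None was called by limma, while an unadjusted p under 0.05 was found for 9 in the higher and 2 in the lower direction (21.4% and 4.76%, beside 5.67% and 7.77% of all genes). In shPTPRN3, 22 were wholly higher and 5 wholly lower (52.4% and 11.9%, beside 21.5% and 23.1% of all genes), and the median log2 fold change was 0.45. SFN, counted among the 22, had 0.301 and 0.283 in shNC and 0.701 and 2.74 in shPTPRN3. Its mean reached the 1 needed for testing only through the shPTPRN3 libraries. CDKN1A, the cyclin-dependent kinase inhibitor p21, had 142 and 89.2 in shNC and 609 and 918 in shPTPRN3 (log2 fold change 2.72 ± 0.49, SE; limma, adjusted p = 0.0759). BAX, the pore-forming member of the BCL2 family, had 106 and 49.0 against 104 and 47.6, values that followed the replicate number. PRKAB2 (log2 fold change 1.13), a beta subunit of the energy-sensing kinase AMPK, and ZNF79 (1.11), a zinc finger protein, were wholly higher. The other AMPK beta subunit gene, PRKAB1 (-1.24), and the replication clamp PCNA (-1.15) were wholly lower, with adjusted p of 0.191 and 0.256 in limma's test.

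**Figure D4:**
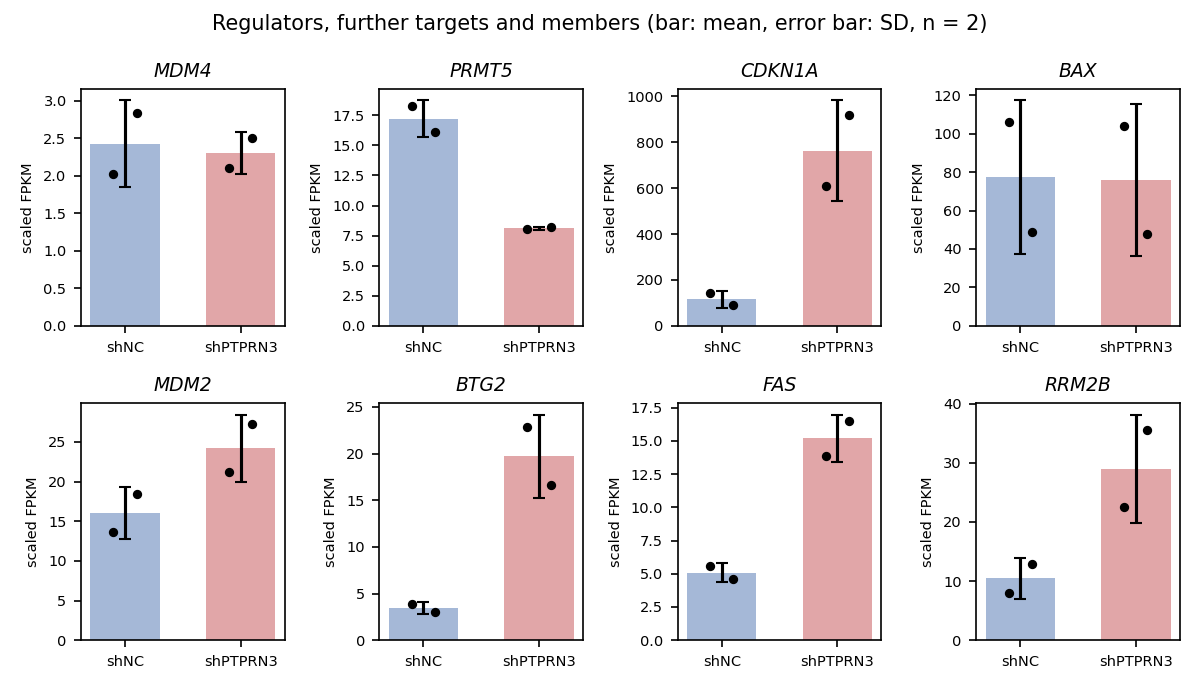
Scaled FPKM of MDM4, PRMT5, CDKN1A and BAX (upper row) and of the members MDM2, BTG2, FAS and RRM2B (lower row) in shNC (blue) and shPTPRN3 (red); bars are group means, error bars are SD (n = 2) and points are libraries. BTG2, FAS and RRM2B stand 5.69, 2.99 and 2.77 times higher in shPTPRN3, while the libraries of MDM4 and BAX overlap.

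The promoters of the members were searched for the p53 response element. As the members were chosen as known direct targets of p53, the share with a match describes that choice and does not bear on the hairpin. RefSeq promoters (GRCh38.p14), from 250 bases before to 50 after the gene's start, were at hand for 28 members. For 24 of these, bases after the start were found in a GENCODE 29 transcript of the gene. For SESN1, DDB2, SPATA18 and ACER2 they were not, so those windows may lie at another start. The element was taken as 2 adjacent consensus units of the p53 motif, with both central cores intact and at most 3 mismatches elsewhere; it is its own reverse complement, so both strands were covered. A match was found in 2 of 28 members (7.14%), AEN and GDF15, beside 0.418% of 27305 promoters. With up to 4 mismatches TRIAP1 joined them, which made 3 of 28 (10.7%) beside 0.945%. The 3 sites are shown with the cores in capitals, 5′ to 3′ on the strand of the gene, because they let the letters be set beside the transcript values of each member. AEN is at chr15:88621306-88621325, plus strand, from -34 to -15; GDF15 is at chr19:18386186-18386205, plus strand, from 29 to 48; TRIAP1 is at chr12:120446337-120446356, minus strand, from 29 to 48, all relative to the start.
AEN: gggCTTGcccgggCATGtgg
GDF15: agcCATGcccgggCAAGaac
TRIAP1: aggCATGcacggaCATGaag

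AEN holds the closest match, with 2 mismatches, and its transcript overlapped between the groups (log2 fold change -0.22). GDF15 (3 mismatches, 1.01) and TRIAP1 (4 mismatches, 0.91) were wholly higher in shPTPRN3. The promoter of BTG2, the member with the largest difference, held no match in this window. Its last 100 bases before the start (chr1:203305419-203305518, plus strand) are shown for comparison, with no match by this definition to mark in capitals.
BTG2: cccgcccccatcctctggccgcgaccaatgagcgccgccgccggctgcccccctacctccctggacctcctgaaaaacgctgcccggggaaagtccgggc

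A match is a description of these letters, and the lack of one says only that no match by this definition is in this window. Pairs of units with a spacer or an altered core were not searched for. Single units of the motif, with at most 1 mismatch outside the core, were no more frequent in the members than elsewhere, at 9 of 28 promoters (32.1%) beside 32.7% of all promoters.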

How the data were processed

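The 4 U87 libraries were prepared with a KAPA kit that keeps strand (labels' protocols). The submitters' processing notes list FastQC 0.72, then STAR 2.6.0b-1, then Cufflinks 2.2.1.2, and the build hg38; annotation and strand options: not given in the sources used here. Per the file headers, the authors deposited FPKM per gene row, with interval bounds and a quantification status (33646 rows in each table). Low values did not resolve into whole fragments (32.0% to 51.0% on a step, log2 tolerance 0.004), so no count model was used.

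Left out were 651 rows whose status was not OK in some library, none of them a member's; FPKM were then summed per symbol. SESN2 has a further row on an alternate sequence, listed at 0. Median-ratio factors (1.04, 0.974, 1.05 and 0.943) came from 9988 genes reaching 1 FPKM everywhere. Genes whose scaled mean reached 1 were tested by limma 3.58.1 (R 4.3.3; log2 of scaled FPKM plus a pseudocount of 1; two-sided; eBayes with trend) and adjusted by Benjamini-Hochberg over all 11390 genes, at a threshold of 0.05. Fold changes on this scale understate those of low genes. The code was tested on simulated data.

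The members and lists were chosen with earlier results of these data known. All members are named; MDM2 and the 12 members with the largest absolute differences have full statistics. Of the other lists, the text names MDM4, CDKN1A and BAX and up to 4 genes each with the largest differences among those never listed at 0. A locus of the regulator list is not reported here, and the list's counts leave it out. Roles were assigned from background knowledge after the values were seen. For depth, the deposited intervals of single-exon genes were read as 2 SD of counting error to each side. Positions come from the tables (hg38), counted from 1; all 34 members overlap the GENCODE 29 gene of that name. Python 3.11.15, pandas 2.3.3, numpy 2.4.6 and matplotlib 3.10.9 were used. Alternatives covered scaling, pseudocount, filters, status, eBayes settings, transcript length, the replicate block and leaving out each library; leaving out genes listed at 0, and the single motif units, were added after seeing the data.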

Additional observations from a re-analysis of the deposited data

How the results depend on the processing

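Of the 34 members, 26 kept the sign of their log2 fold change in every alternative in which they were tested, of 17 in all; POLH, SPATA18, PPM1D and ACER2 were not tested with a mean of at least 5. The wholly higher members numbered 23 to 25 leaving out each library, where 31.9% to 39.2% of all genes were wholly higher, against 21.5% with all libraries. With 2 libraries a group, the error of each difference limits what can pass. The cause of the following shifts was not tested. Genes called numbered 31 with FPKM as deposited, 23 with a pseudocount of 0.1, 0 of 19733 without a filter, 8 with a mean of at least 5, 26 without trend, 160 with robust eBayes, 94 with the length trend removed, 217 without genes listed at 0, and 60 to 197 leaving out each library in turn, against 48 as reported. Members called were 1 with robust eBayes and 1 with the length trend removed (BTG2), 2 without genes listed at 0 (BTG2 and ACER2), and 0 to 1 leaving out each library; regulators called were 0 to 1 leaving out each library, and further targets called were 1 with TPM, 1 with the length trend removed and 1 without genes listed at 0. The members' median was 0.79 with TPM, where that of all genes was 0.08, 0.74 and 0.69 with pseudocounts of 0.1 and 0.5, 0.68 with the length trend removed, and 0.39 to 0.84 leaving out each library. Wholly lower members numbered 3 to 7 leaving out each library, beside 31.7% to 40.4% of all genes. With at most 2 mismatches, 1 member promoter held the motif.

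Both groups share the replicate numbers 1 and 2, and with a replicate block 16 members (15 higher and DRAM1 lower), 3 regulators, 14 further targets and 2163 genes (19% of all tested) were called. Deviations of same-numbered libraries correlated with r = 0.519 across 11390 genes, which are not independent replicates, and with r = 0.533 across the 34 members. With only 2 pairs, and labels that neither name nor deny a shared batch, whether the numbers pair the samples was not tested, and the fit without the block is the one reported.

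Signs reversed for these genes. With TPM, log2 fold changes were 0.06 for ZMAT3, 0.03 for PHLDA3, 0.02 for MDM4 and 0.06 for BAX. With quantile normalization they were 0.04 for MDM4 and 0.15 for GAPDH, and with the length trend removed 0.01 for PHLDA3 and 0.15 for BAX. Leaving out each library gave -0.53 to 0.46 for ZMAT3, -0.46 to 0.35 for PHLDA3, -0.22 to 0.12 for MDM4, -0.59 to 0.54 for BAX, -0.49 to 0.24 for GAPDH, -0.71 to 0.17 for DDB2, -0.19 to 0.39 for CYFIP2, -0.49 to 0.74 for GADD45A, -0.13 to 0.54 for PIDD1, -0.15 to 0.33 for NINJ1 and -0.09 to 0.39 for POLH.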
